A study of Rattus norvegicus with 7 samples.

Results

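The receptors described here are 10 G protein-coupled receptors through which macrophages sense metabolites, extracellular nucleotides, chemoattractants and prostaglandins: Gpr84, Hcar2, Sucnr1, P2ry2, P2ry6, C5ar1, Ltb4r, Ptger2, Ptger4 and Adora2b. They were picked by name on the array, with every feature (a spotted 60-base oligonucleotide) that carries the name, which gave 13 of the 45598 features that are not controls. Of the genes, 9 were found under their own name and Hcar2, which the array design calls Niacr1, by its transcript accession. Gpr84 was chosen by its fold change in the very comparison described below, so its values are a description and no test is given for it. The others were gathered around it as a family.

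The cells were NR8383, a cloned line of alveolar macrophages obtained by lung lavage of a normal rat. One group was exposed for 4 h to zinc oxide nanoparticles (ZnO NPs) at a labelled dose of 2 µg/mL (3 arrays), and the other was cultured for 4 h without NPs and is called control here (4 arrays). Both groups were kept without serum during the exposure, and the text of the study gives another dose than the labels. Results from 1 line in culture stand for that line. The methods plan biological replicates, while the labels give only replicate numbers and do not name separate cultures.

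G protein-coupled receptors turn a ligand outside the cell into a signal inside it through heterotrimeric G proteins. Receptors coupled to Gi lower cyclic AMP and drive chemotaxis through the G protein beta and gamma subunits, receptors coupled to Gq release calcium, and receptors coupled to Gs raise cyclic AMP, which in macrophages dampens the release of inflammatory cytokines. Gpr84 responds to medium-chain fatty acids and is known in mouse and human macrophages as a gene induced by endotoxin. Hcar2 binds hydroxybutyrate and niacin, and Sucnr1 binds succinate, an intermediate of the citric acid cycle.

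The sequences below are the first 30 bases of 5 features, 5′ to 3′, as the array design gives them, in lower case because no base is singled out. Those of Gpr84 and Sucnr1 carry the most negative fold changes of the set, that of Hcar2 shows what was measured under the name Niacr1, and those of Ptger2 show that 1 gene name stands over oligonucleotides at separate places.
Gpr84: ggccacagagtttccgacggttccattaga
Sucnr1: ctcactttcattagcatagaccgatatctg
Hcar2: ttaatgactgaccccagtgagccaggcagc
Ptger2, feature used: agggccggaatgtaaacaaatggccttgct
Ptger2, dim feature: acgaagtattggctaccctccaaaatgcat
On the rat build rn4 named by the array design, the Gpr84 feature lies at chr7:142217967-142218026 on the minus strand, the Sucnr1 feature at chr2:149416392-149416451 on the plus strand and the Hcar2 feature at chr12:33864899-33864958 on the plus strand. The Ptger2 features lie at chr15:20889441-20889500 and chr15:20214436-20214495, both on the plus strand and 674945 bases apart. The second of them was designed on a predicted transcript and was well above background on 0 of 3 ZnO arrays and 1 of 4 control arrays. The features of P2ry2 and P2ry6 lie 58498 bases apart on chromosome 1, and the C5ar1 feature has no position in the design. Features were placed on transcripts by the design, and exon positions were not used here.

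All 7 arrays came from 1 slide and 1 scan, the ZnO arrays in its second column and the control arrays in its first, and an effect of slide position cannot be told apart from one of ZnO. The 75th percentile of intensity, used to scale each array, was 980 to 1603 on ZnO arrays and 958 to 1489 on control arrays. Metallothioneins, which bind zinc, and the zinc exporter of the cell membrane showed the exposure. Mt2A was higher in ZnO-exposed cells by 5.83 (SE 0.13), Mt1a by 3.40 (SE 0.11) and Slc30a1 by 1.37 (SE 0.09) on the log2 scale, with limma adjusted p of 3.89e-06, 3.75e-05 and 0.00279. Of the macrophage markers, 9 of 11 were well above background on all arrays, Cd68 and Csf1r among them, and Marco on none. Of 5 epithelial markers 0 were well above background on all arrays, with Sftpc and Scgb1a1 on some and Epcam, Sftpb and Cdh1 on none. Markers of other cell types were also well above background on all arrays: Cd3d of lymphocytes (but Cd3e and Cd79b on none), Col1a2 and Dcn of fibroblasts, Pecam1, Cdh5 and Vwf of endothelial cells, and Mpo and Camp of neutrophils. Of the same lists, Col1a1, Col3a1 and Pdgfra, Kdr, and Elane, Ltf and Cxcr2 were well above background on no array. None of the tested markers of these cell types passed the limma adjusted threshold between the groups.

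Within the set, Gpr84 was the receptor with the largest difference between ZnO-exposed and control cells, and its transcript was lower after ZnO. Over all features tested, 10 were higher and 0 were lower at the limma adjusted threshold, while some alternatives did call lower features. The other 8 receptors that could be tested did not pass this threshold. Of the 10 genes, 9 had a feature that met the condition for a test, a spot well above background on every array of either group, and Ltb4r had none. Of the 8 tested members other than Gpr84, 0 rose and 0 fell at the limma threshold of an adjusted p under 0.05, where 0.0499% of all 20050 features tested passed. At an unadjusted p under 0.05, 1 of the 8 passed (Sucnr1), against 5.92% of all features. The adjusted p of the 8 lay between 0.823 and 0.999. The log2 fold changes of the 9 tested genes had a median of -0.00, beside -0.01 over all features tested, with 4 above 0 and 5 below.

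The values below are log2 intensities relative to the 75th percentile of the array, so that a value of 0 is the 75th percentile and negative values are dimmer. Oligonucleotides differ in how brightly they light up, so no receptor's level is set against that of another.

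Gpr84 read -5.72, -5.61 and -5.37 on ZnO arrays 1 to 3, against -4.62, -4.55, -4.34 and -4.88 on control arrays 1 to 4. Each ZnO array lay below each control array, with control array 4 the closest to them. The group means were -5.57 ± 0.18 in ZnO-exposed cells (SD, n = 3) and -4.60 ± 0.23 in control cells (SD, n = 4), and the log2 fold change was -0.97 (SE 0.14), or 0.510 on the linear scale. In bulk RNA, fewer cells carrying a transcript and less of it per cell cannot be told apart. Among the 20050 features tested, 13 had a log2 fold change this low or lower, Gpr84 included. Gpr84 was the 1 member whose groups did not overlap in the lower direction, and 0 members did so in the higher direction. Over all features tested, 3.59% lay entirely lower and 3.8% entirely higher on ZnO arrays. Since Gpr84 was chosen by its fold change in this contrast, nothing is read from its rank by fold change or from the count without overlap.

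**Figure D1:**
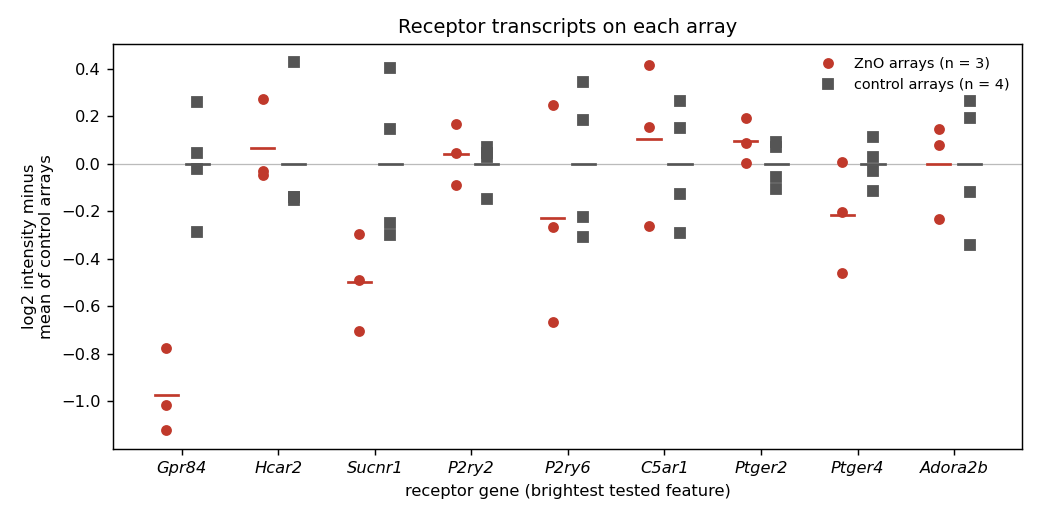
Log2 intensity of each tested receptor gene (x axis) on each array, minus the mean of its control arrays (y axis, log2 units), with ZnO arrays as red circles at left, control arrays as grey squares at right and horizontal bars at the group means. Gpr84 is the gene whose ZnO arrays, at a mean log2 difference of -0.97, all lie below its control arrays.

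The Gpr84 feature was dim in every array. It was well above background on 2 of 3 ZnO arrays (not on ZnO array 1) and on 4 of 4 control arrays, so it entered the test only through the control group. After background subtraction its intensity was 18.6, 26.6 and 38.7 on the ZnO arrays and 53.7, 63.5, 58.4 and 32.4 on the control arrays, before any scaling between arrays. On this unscaled intensity ZnO array 3 lay above control array 4, so the groups overlapped. The median brightness of the spot before subtraction was 75.5, 84.5 and 100.5 on the ZnO arrays and 109.5, 129.0, 120.0 and 90.0 on the control arrays, so that on every array, ZnO and control alike, more of the brightness was removed as background than was kept. Of all features tested, 12.3% had a lower control mean than Gpr84, and the median SD between control arrays among those dim features was 0.28.

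The size of the Gpr84 difference moved with the treatment of background. The normexp correction subtracts local background, models what is left and adds an offset, here 50, which makes log2 differences of dim features smaller. With it the log2 fold change was -0.33. How much of the move the offset made was not tested. The spot brightness of the deposited table, scaled in the same way but not background-corrected, gave a log2 fold change of -0.42. The Gpr84 fold change was below 0 under every background correction and scaling tried. The groups overlapped with normexp and when arrays were centred on spike-in spots, and Gpr84 was not tested when a feature had to be well above background on all 7 arrays.

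**Figure D2:**
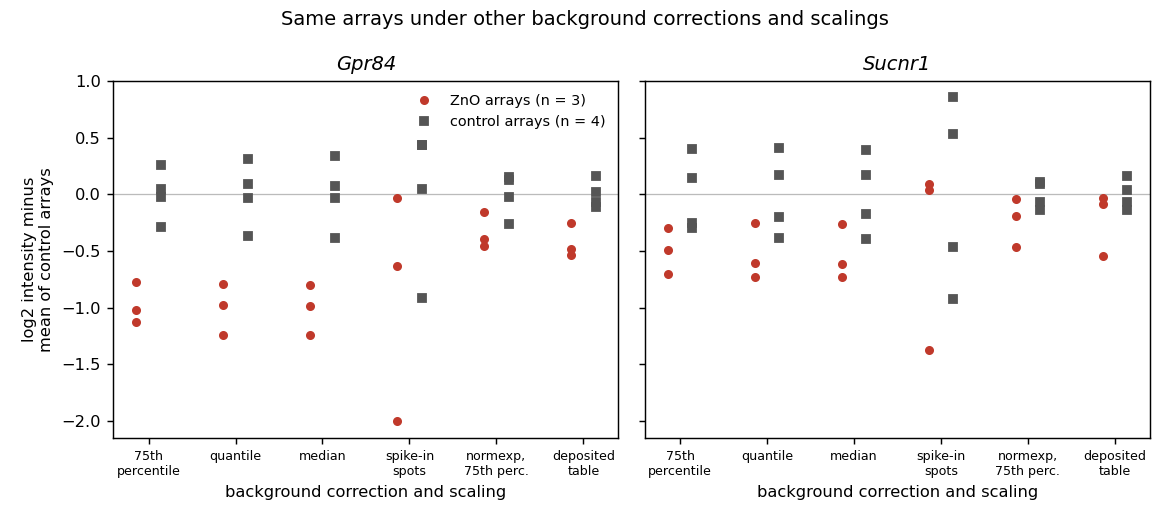
Log2 intensity of Gpr84 and Sucnr1 on each array minus the mean of the control arrays (y axis, log2 units) under 6 treatments of background and scaling (x axis), with ZnO arrays as red circles at left of each pair and control arrays as grey squares at right. The mean Gpr84 difference is -0.97 with the 75th percentile, -0.33 with normexp and -0.42 with the deposited table, and the spread between arrays is widest with spike-in centring.

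Of the other receptors for metabolites, Sucnr1 lay lower in ZnO-exposed cells without passing the adjusted threshold. It read -4.89, -4.70 and -5.11 on ZnO arrays 1 to 3 and -4.00, -4.26, -4.65 and -4.70 on control arrays 1 to 4. ZnO array 2 lay level with control array 4, and the other ZnO arrays lay below all control arrays. The means were -4.90 ± 0.21 with ZnO (SD, n = 3) and -4.40 ± 0.33 in control cells (SD, n = 4), a log2 fold change of -0.50 (SE 0.19, 95% interval -0.94 to -0.06). Its limma p was 0.0317 before adjustment and 0.823 after it, with adjusted values of 0.282 to 1.00 over the alternatives. Like Gpr84, its difference was smaller in size with normexp (-0.23) and with the deposited table (-0.22).

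Hcar2, a Gi-coupled receptor that in adipocytes restrains lipolysis, read -1.35, -1.65 and -1.67 on ZnO arrays and -1.76, -1.77, -1.76 and -1.20 on control arrays. Control array 4 stood above every other array and controls 1 to 3 below every ZnO array, so the groups overlapped through control array 4 alone. The log2 fold change was 0.07 (SE 0.17, 95% interval -0.32 to 0.45, limma adjusted p = 0.999), and 0.21 without control array 4.

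P2ry2 and P2ry6, Gq-coupled receptors for nucleotides that leak from damaged cells, did not pass the threshold. P2ry2, which binds ATP and UTP, read -0.12, -0.38 and -0.25 on ZnO arrays and -0.26, -0.22, -0.44 and -0.25 on control arrays. The groups overlapped, with means of -0.25 ± 0.13 with ZnO (SD, n = 3) and -0.29 ± 0.10 in control cells (SD, n = 4). The log2 fold change was 0.04, with a 95% interval of -0.17 to 0.25. P2ry6, which binds UDP and is known from microglia as a receptor that starts phagocytosis, read -3.03, -2.63 and -2.12 on ZnO arrays and -2.59, -2.18, -2.67 and -2.02 on control arrays. Its ZnO arrays were the widest apart among the tested features of the set (SD 0.46, n = 3), and its interval, -0.79 to 0.34 around -0.23, was wider than that of P2ry2. Its log2 fold change was -0.47 without ZnO array 3 and -0.01 without ZnO array 1. A second P2ry6 feature was well above background on 1 of 3 ZnO and 1 of 4 control arrays and was not tested.

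Of the receptors for chemoattractants, C5ar1 was well above background on all arrays and Ltb4r on none. C5ar1, the receptor for the complement fragment C5a, read 0.38, 0.80 and 1.06 on ZnO arrays and 0.52, 0.91, 0.36 and 0.80 on control arrays. Both groups spanned much the same range, and the log2 fold change was 0.10 (SE 0.19, 95% interval -0.34 to 0.55). Ltb4r, the high-affinity receptor for leukotriene B4, was well above background on 0 of 3 ZnO and 0 of 4 control arrays. Its values of -7.17, -7.89 and -8.03 on ZnO arrays and -8.29, -8.27, -7.63 and -6.99 on control arrays therefore have no order, and no fold is given.

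The Gs-coupled receptors were Ptger2 and Ptger4, which bind prostaglandin E2, and Adora2b, the low-affinity receptor for adenosine. Ptger2 read -0.84, -0.95 and -1.03 on ZnO arrays and -0.96, -1.09, -0.94 and -1.14 on control arrays. Its groups overlapped, with SDs of 0.10 in each (n = 3 and n = 4), and its log2 fold change of 0.10 had the narrowest interval of the set, -0.10 to 0.29. Ptger4 read -4.34, -4.09 and -3.88 on ZnO arrays and -3.85, -4.00, -3.77 and -3.91 on control arrays. ZnO arrays 1 and 2 lay below all control arrays and ZnO array 3 lay among them, for a log2 fold change of -0.22 (SE 0.12, 95% interval -0.49 to 0.06, limma adjusted p = 0.894). This Ptger4 feature was designed on a predicted transcript. A second Ptger4 feature, designed on another transcript that is not a predicted one, was well above background on no array. Adora2b read -4.10, -3.72 and -3.79 on ZnO arrays and -4.21, -3.68, -3.99 and -3.61 on control arrays, with means of -3.87 ± 0.20 with ZnO (SD, n = 3) and -3.87 ± 0.28 in control cells (SD, n = 4). The groups overlapped throughout. Its log2 fold change was -0.00 with an interval of -0.39 to 0.39.

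**Figure D3:**
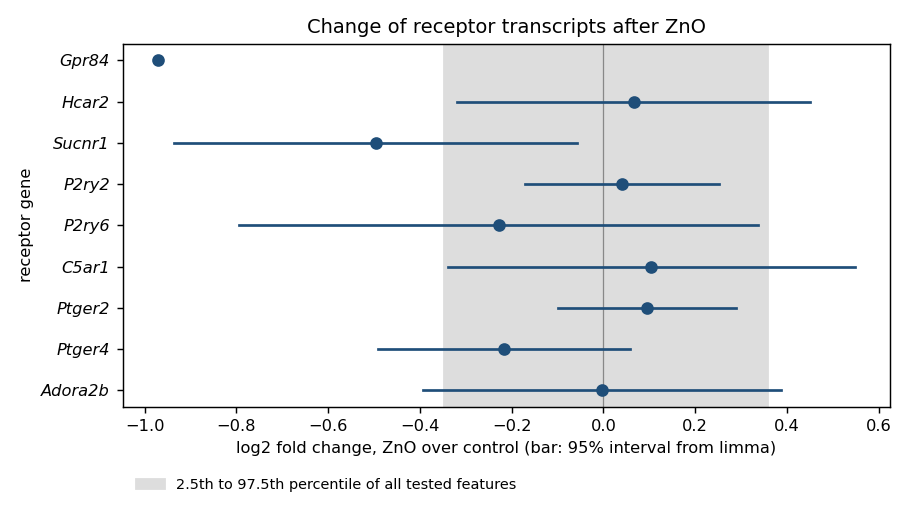
Log2 fold change of ZnO over control (x axis) for the 9 tested receptor genes (y axis), with bars for the 95% interval from limma (none for Gpr84, which was chosen on this value) and a grey band for the middle 95% of all features tested. Gpr84 (-0.97) and Sucnr1 (-0.50) lie to the left of the band, which runs from -0.35 to 0.36, and the other 7 lie inside it. The band is not matched for brightness, and both of these features are dim. The median SD between control arrays was 0.28 among features with a lower control mean than Gpr84 and 0.13 over all features tested.

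The limits of these comparisons follow from the spread. The median SD over the 9 tested members was 0.20 among ZnO arrays and 0.25 among control arrays, beside 0.13 among ZnO arrays and 0.13 among control arrays over all features tested. Intervals as wide as that of P2ry6 leave room for differences in either direction, and the 8 other members were not shown to be equal in both groups.

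The profile of Gpr84 over the 7 arrays was closest to those of Cobl, Zfp966, LOC100912475, Frmd4a and Cyp4f5 among 12361 other genes. The measure was the root mean square difference of log2 values, each centred on its own control mean, and it was 0.18, 0.24, 0.26, 0.26 and 0.28 for these genes in that order. Cobl, an actin nucleator, read -5.40, -5.75 and -5.42 on ZnO arrays and -4.65, -4.23, -4.42 and -4.91 on control arrays, with control array 4 the lowest control as for Gpr84. Its log2 fold change was -0.97, and those of the other 4 were -0.80, -0.65, -0.74 and -0.65. These genes were picked for lying low on the ZnO arrays as Gpr84 does, so their fold changes carry no test. LOC100912475 and Cyp4f5 were each well above background on 1 of 3 ZnO arrays and 4 of 4 control arrays. Like Gpr84, they met the condition for a test only through the control group.

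The wider receptor repertoire was taken from a list of 57 other receptors of macrophages for metabolites, lipids, nucleotides and chemoattractants, of which 56 had a feature. On all arrays 24 were well above background, among them Ffar2 and Ffar4 for short-chain and long-chain fatty acids, Ptafr for platelet-activating factor and C5ar2, the second C5a receptor. On no array were 20, among them Ffar1, Ffar3, Hcar1 (the lactate receptor), Oxgr1 (the oxoglutarate receptor), Gpbar1 (the bile acid receptor), Fpr1 and Fpr2. Of the 25 tested, 0 rose and 0 fell at the adjusted threshold, where 0.0499% of all features passed, and at the unadjusted threshold 0 were higher and 3 lower, where 5.92% of all features passed. The median log2 fold change was -0.16, beside -0.01 over all features, with 19 of 25 below 0 (52.2% of all features) and a range of -0.45 to 0.11. Of those below 0, C3ar1 (-0.44) was well above background on some arrays only, so it entered the test through a single group. The list was not matched to all features in brightness, and its shift was not tested.

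P2ry14, a Gi-coupled receptor for UDP-glucose, read -2.27, -2.48 and -2.63 on ZnO arrays and -2.21, -2.16, -2.18 and -1.90 on control arrays. Gpr18, a receptor of lipid mediators, read 0.86, 0.88 and 0.95 on ZnO arrays and 0.99, 1.22, 1.11 and 1.25 on control arrays. These were the 2 of 25 listed receptors whose groups did not overlap, both lower with ZnO, beside 3.59% of all features entirely lower and 3.8% entirely higher. Their log2 fold changes were -0.35 and -0.25, with limma adjusted p of 0.750 and 0.763.

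Downstream of the receptors, 0 genes of each list passed the adjusted threshold in either direction, where 0.0499% of all features passed. Lists this short would seldom hold a gene that passes at that share. Of 23 G protein subunits 14 were tested, with a median log2 fold change of -0.03. Gnaq, the alpha subunit of Gq, read -4.40, -4.69 and -4.87 on ZnO arrays and -4.97, -4.94, -4.97 and -5.33 on control arrays, all ZnO arrays above all control arrays (log2 fold change 0.40, limma adjusted p = 0.787). Gnaq was dim and well above background on some arrays only, so it entered the test through a single group, and nothing is read from its lack of overlap. Gnb4, a beta subunit, lay lower without overlap at -0.18 (adjusted p = 0.844). Of the 14 subunits, 1 lay entirely higher and 2 entirely lower on ZnO arrays, beside 3.8% and 3.59% of all features. Of 16 receptor kinases, arrestins and RGS proteins, which switch receptors or G proteins off, 13 were tested with a median of 0.00. Rgs2, which speeds the switching off of Gq, read 2.20, 2.16 and 2.01 on ZnO arrays and 1.67, 1.68, 1.76 and 1.53 on control arrays, without overlap. Its log2 fold change of 0.46 (SE 0.08) had a limma adjusted p of 0.350, and it was the 1 of these 13 genes without overlap.

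Of 31 enzymes that make, break or carry second messengers, 24 were tested, with a median of -0.04. Adcy2, an adenylyl cyclase, read -5.01, -4.97 and -4.84 on ZnO arrays and -4.51, -4.55, -4.56 and -4.13 on control arrays (log2 fold change -0.50, limma adjusted p = 0.547). Pik3cg, the catalytic subunit of the phosphoinositide 3-kinase that G protein beta and gamma subunits activate, lay lower by the same measure at -0.36 (adjusted p = 0.689). Neither gene overlapped between the groups. Of the 24 enzymes, 3 lay entirely lower on ZnO arrays, Adcy2 and Pik3cg among them, and 0 entirely higher, beside 3.59% and 3.8% of all features. Of 16 genes of the transcriptional response to cyclic AMP or calcium, 6 were tested and 8 were well above background on no array. The list holds the transcription factor Creb1 beside early genes, and the median of those tested was -0.05.

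Of 35 enzymes and transporters that set the levels of the receptors' ligands, 23 were tested. Their log2 fold changes lay between -0.11 and 0.16 with a median of -0.02, and 0 of 23 had groups that did not overlap, beside the same 3.59% lower and 3.8% higher over all features. Of 20 genes driven by NF-kB in activated macrophages, 15 were tested, with a median of -0.07 and a range of -0.42 to 0.87. The upper end was Ccl2, a chemokine whose groups overlapped (limma adjusted p = 0.652). Ccl4, a chemokine, read -0.44, -0.86 and -0.76 on ZnO arrays and -0.26, -0.19, -0.37 and -0.23 on control arrays, below every control array (log2 fold change -0.42, limma adjusted p = 0.644). Nfkbiz, a nuclear regulator of NF-kB targets, lay lower without overlap at -0.26 (adjusted p = 0.811). Ccl4 and Nfkbiz were the 2 of 15 without overlap, beside the same shares of all features.

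**Figure D4:**
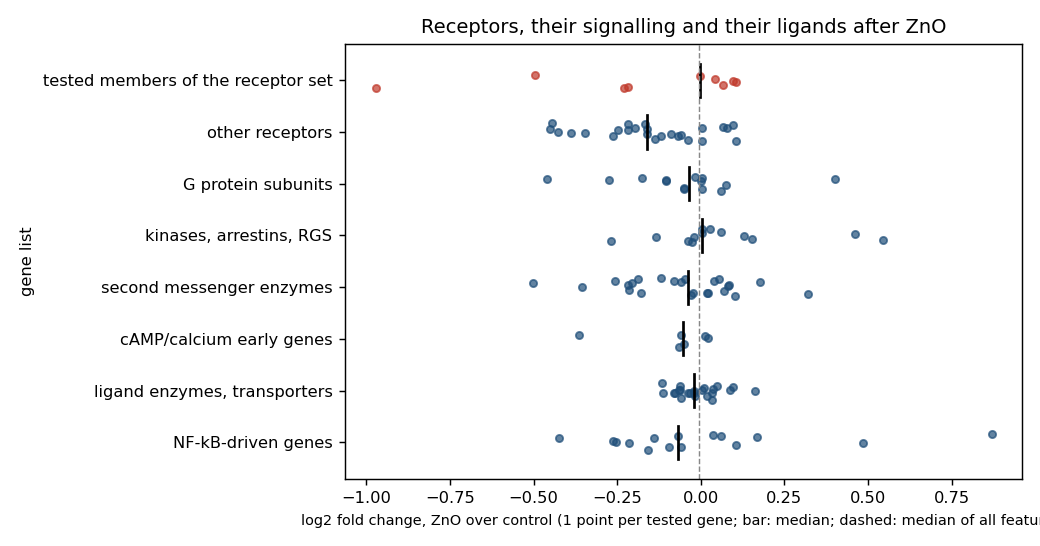
Log2 fold change of ZnO over control (x axis) of each tested gene in the receptor set (red) and in 7 lists of related genes (blue, y axis), with a black bar at each median and a dashed line at the median of all features tested (-0.01). The median is -0.00 for the tested members of the set and -0.16 for the other receptors, and Gpr84 at -0.97 is the leftmost point.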

How the data were processed

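Total RNA of NR8383 cells was labelled with Cy3 and hybridised to one-color Agilent rat arrays, 3 for ZnO and 4 for control. The authors extracted spot intensity with Agilent Feature Extraction 11.0.1.1, which subtracts background and removes trends across the array, and then used percentile normalization in GeneSpring. The deposited intensity files hold the extracted values without scaling between arrays, and the deposited table equals the median brightness of all 62976 spots on every array, so it was used only as an alternative.

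The log2 of the background-subtracted intensity minus the log2 of the 75th percentile over 58717 non-control spots was taken for each array. Outlier spots were left out and spots of 1 feature averaged. A feature was tested where every array of either group showed it well above background (20050 of 45598). The groups were compared in R 4.3.3 with lmFit and eBayes of limma 3.58.1, p-values were adjusted by Benjamini-Hochberg over all tested features, and the threshold was 0.05. A gene takes its brightest tested feature. Gene names came from the current RefSeq annotation by accession (21109 features), symbol (6684) or synonym (424), and 17381 features kept the name in the files. Python 3.11.15, pandas 2.3.3, numpy 2.4.6, data.table (version 1.17.8) and matplotlib 3.10.9 were used. The fit was tested on simulated data.

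The members and the gene lists were chosen with earlier results of these data known. Genes are named by this rule: all members, up to 2 genes of each list with the largest change among those whose groups do not overlap, the 5 genes closest to Gpr84 in profile, 3 zinc-response genes and defining cell markers. Receptors and markers named only as above background or not are given as examples, and Ccl2 is named as the upper end of the range of its list. The number of arrays limits the precision. Alternatives were quantile, median and E1A spike-in scaling (247 spots), normexp with an offset of 50, the deposited table, other filters, other variance models, weighted arrays, a block for the replicate number, the mean of tested features and leaving out each array.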

Additional observations from a re-analysis of the deposited data

Results flagged for a closer look

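The level of Hcar2 on control array 4, -1.20, stood apart from the other 3 control arrays, which read -1.77 to -1.76. Its gap to the nearest of them was 0.977 of the whole range of the group, above the critical value of Dixon's test for 4 arrays. Of the 13 features checked in the control group this was the 1 that stood apart, and chance alone sets apart about 1 in 20 groups. Without this array the log2 fold change of Hcar2 was 0.21, beside 0.07 with it.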

How the results depend on the processing

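Members other than Gpr84 past the adjusted threshold numbered 0 in each of the 17 alternatives, and so did the listed related genes. Over all features the count of 10 became 5 with E1A spike-in centring, 5 with no filter and 4 with the replicate number as a block. It was 15 with array weights, and 7 to 14 when arrays were left out in turn. Features called lower, 0 in the main fit, numbered 4 with a trended and robust variance model and 4 with array weights. They numbered 1 each with quantile scaling, with median scaling and without ZnO replicate 1, and 0 in the other alternatives. The log2 fold change of Gpr84 moved to -0.33 with normexp and -0.42 with the deposited table, stayed between -1.07 and -0.88 when arrays were left out, and was -1.07 with the replicate block. The count of members without overlap, 1, became 0 with spike-in centring, with normexp and with the filter on all arrays, which leaves Gpr84 untested. Leaving out arrays gave 1 to 3, with 2 without ZnO replicate 2 (Sucnr1 also lower), 2 without ZnO replicate 3 (Ptger4 also lower) and 3 without control replicate 4 (Sucnr1 also lower, Hcar2 higher), and smaller groups overlap less by construction. Members near 0 changed sign. Hcar2 went to -0.038 without ZnO replicate 1 (from -0.04 to 0.21 over the arrays left out). C5ar1 went to -0.052 without ZnO replicate 3 (from -0.05 to 0.29). P2ry2 went to -0.049 with array weights, -0.021 without ZnO replicate 1 and -0.0080 without control replicate 3 (from -0.02 to 0.11). Adora2b went to 0.082 with spike-in centring, 0.013 with the deposited table, 0.14 with array weights and 0.086 with the replicate block. It also went to 0.11 without ZnO replicate 1, 0.062 without control replicate 2 and 0.086 without control replicate 4. Its range was -0.12 to 0.11 when arrays were left out. P2ry6 had the widest range of the members when arrays were left out, -0.47 to -0.01. Apart from what construction shows, the cause was not tested. The labels do not say that replicate numbers mark a shared culture or day, so the numbers were not taken to pair the samples. Same-numbered arrays of the 2 groups deviated with correlations of -0.09, 0.21 and -0.23, which on so few arrays cannot decide whether they were paired. Signal over background limits Gpr84, Sucnr1, Ptger4 and Adora2b most, and Ltb4r entirely.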
